A study of Homo sapiens with 6 samples.

Results

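The genes examined were 10 members of the interleukin-6 (IL-6) cytokine pathway, taken by symbol from the 20030 genes listed for 786-O renal cancer cells. They comprised the ligands IL11, IL6 and LIF, the receptor chains IL11RA, IL6R, IL6ST, LIFR and OSMR, the transcription factor STAT3 and its feedback inhibitor SOCS3. The members were chosen by symbol with their FPKM differences between YB1 knockdown and control already known, so these differences are described and not tested, whereas other genes of the pathway were tested in a fit of all genes. 786-O is an established line from clear cell renal cell carcinoma. Cells labelled shYB1 carried a stable lentiviral small hairpin RNA against YB1, and cells labelled vector carried a scrambled hairpin from the same system. Both groups went through puromycin selection and were harvested about a week later, at passages 16 to 18, with 3 libraries each. The series text mentions several hairpins against YB1, but the labels do not tell them apart. No label says whether replicates were separate cultures. The p-values given set the group difference against the variation between these libraries, moderated by that of all genes fitted. That variation may be technical.

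IL-6 family cytokines signal through receptor complexes that share the chain gp130, encoded by IL6ST. IL-6 and IL-11 first bind their own alpha chains (IL6R and IL11RA) and then a pair of gp130 chains, whereas LIF joins gp130 to the LIF receptor and oncostatin M joins it to the product of OSMR. The bound JAK kinases phosphorylate STAT3, which enters the nucleus and induces, among other genes, SOCS3, and the SOCS3 protein then blocks gp130 signalling. In the liver, and in other epithelial cells, the pathway is known for inducing acute-phase plasma proteins.

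The labels were first checked in the data. YBX1, the gene of YB1, had 366 to 378 FPKM (fragments scaled to transcript length and library size, so levels of different genes are comparable per length) in vector libraries and 166 to 173 FPKM in shYB1 libraries, a log2 difference of −1.14 (standard error 0.031, limma adjusted p = 1.53e-08). All 8 of 8 kidney, keratin and clear cell carcinoma markers, PAX8 and EPAS1 among them, averaged 1 FPKM or more, with a summed level of 1879 to 1970 FPKM in vector and 1928 to 1963 FPKM in shYB1 libraries, most of it VIM. One of these markers, the kidney cadherin CDH6, fell from a mean of 47.9 to one of 33.0 FPKM (log2 fold change −0.54, limma adjusted p = 3.92e-06). Of 11 markers of leukocytes, endothelium and fibroblasts, 4 (CD3E, MS4A1, CDH5 and COL1A2) were at 0 in every library, and the sum was 1.70 to 4.08 FPKM in vector and 1.43 to 2.44 FPKM in shYB1 libraries, most of it LYZ in the library with the highest sum. Counts were not analysed here and the absolute depth is unknown. The spacing of low values put the depths of the 6 libraries within 11.6% of each other.

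YB1 is named after the Y-box, read here as the letters CCAAT or ATTGG, and the 250 bases before each member's start sites were searched for them on both strands. RefSeq start sites (GRCh38.p14) were at hand for 9 of the 10 members, in 13 entries, and LIF had none. Y-box letters stood in 6 of the 13 entries, 1 each of IL11, IL11RA, IL6, IL6ST, LIFR and STAT3, and in none of IL6R, OSMR or SOCS3. Among all 35116 promoter entries of that length 32.0% held them. The STAT letters TTCNNNGAA (the same on both strands) were found only in 2 entries of LIFR, against 6.57% of all entries, and the AP-1 letters TGANTCA only in IL11, against 6.57% of all entries. Those 2 LIFR start sites lay 12949 and 50887 bases from the GENCODE 29 start of LIFR. The SOCS3 start sites lay 410 and 848 bases from the GENCODE start of SOCS3. The bases directly before that GENCODE start were not searched, so a lack of letters there is not shown. The sequences below belong to the member with the largest difference (IL11) and to both differing members with more than 1 Y-box (IL6ST and STAT3), cut where the GENCODE 29 gene begins. Capitals mark CCAAT or ATTGG and, in IL11, also TGAGTCA, and all are on the minus strand of the chromosome, written 5′ to 3′ in the direction of the gene.
IL11: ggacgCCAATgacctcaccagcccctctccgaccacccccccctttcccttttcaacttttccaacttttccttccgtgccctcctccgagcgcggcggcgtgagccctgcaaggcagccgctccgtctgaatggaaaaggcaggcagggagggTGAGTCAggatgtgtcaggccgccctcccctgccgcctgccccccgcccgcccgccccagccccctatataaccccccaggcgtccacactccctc
IL6ST: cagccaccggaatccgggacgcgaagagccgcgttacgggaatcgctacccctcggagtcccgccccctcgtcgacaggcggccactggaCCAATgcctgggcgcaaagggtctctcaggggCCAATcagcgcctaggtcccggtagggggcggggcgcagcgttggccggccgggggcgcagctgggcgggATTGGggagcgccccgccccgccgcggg
STAT3: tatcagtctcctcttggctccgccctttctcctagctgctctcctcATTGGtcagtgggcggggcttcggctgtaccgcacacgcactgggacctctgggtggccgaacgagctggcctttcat
IL11 (chr19:55370464-55370713) holds 1 Y-box, 245 bases before the start, and 1 AP-1 match at 96 bases. IL6ST (chr5:55994994-55995213) holds 3 Y-boxes, at 160, 128 and 58 bases. STAT3 (chr17:42388569-42388692) shows 1 of its 2 Y-boxes, at 204 bases, the other lying at 79 bases within the GENCODE gene. These are matches of letters only. IL11 and IL6ST, which hold Y-box letters, were higher in shYB1 cells while STAT3, which also holds them, was lower. SOCS3 and IL6R were lower too, with no such letters in the bases searched. IL6, IL11RA and LIFR hold them, and their groups overlapped.

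All 10 members were detected in every library, and SOCS3 and OSMR were the most abundant. In vector cells the mean levels ran from 66.5 FPKM for SOCS3 and 56.6 FPKM for OSMR through STAT3 (22.8), LIF (19.8), IL6ST (16.8) and IL6 (14.1) to IL11 (4.51), LIFR (4.44), IL6R (1.78) and IL11RA (1.18). Among neighbours in that order the values overlapped only between IL11 and LIFR. In shYB1 cells OSMR (54.0 FPKM) stood above SOCS3 (44.2 FPKM), IL11 (9.18 FPKM) no longer overlapped LIFR (4.81 FPKM), and the only overlapping neighbours were IL6ST (19.7 FPKM) and STAT3 (19.1 FPKM). The signal-transducing chains IL6ST, LIFR and OSMR lay between 4.22 and 57.6 FPKM, and the alpha chains IL6R and IL11RA lay between 0.677 and 1.83 FPKM.

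**Figure D1:**
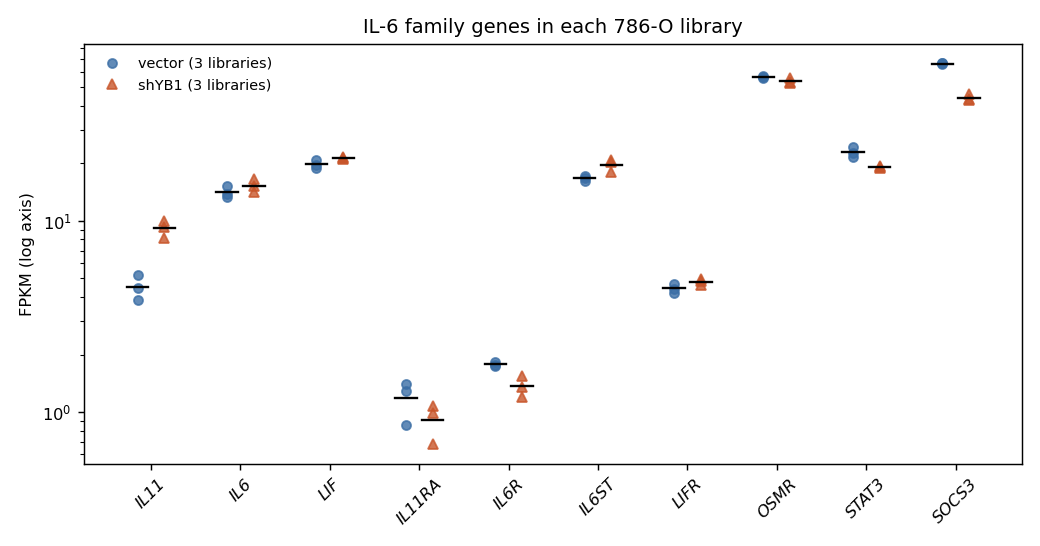
FPKM of the 10 members on a log axis, with each of the 3 vector libraries as a circle, each of the 3 shYB1 libraries as a triangle and group means as horizontal bars. IL11 and IL6ST sit higher in shYB1 libraries, SOCS3, STAT3 and IL6R sit lower, and IL6R and IL11RA lie at the bottom of the range.

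Among the ligands, IL11 differed by far the most, with a mean in shYB1 cells 2.03 times that in vector cells, while IL6 and LIF differed little. IL11, a cytokine linked to stromal fibrosis and epithelial tumours, had 3.87, 5.22 and 4.45 FPKM in the vector libraries (replicates 1, 2 and 3 in that order, as for all values below) and 8.18, 10.0 and 9.32 FPKM in the shYB1 libraries. Every shYB1 library lay above every vector library, and the lowest shYB1 value exceeded the highest vector value by more than the range within either group. The means were 4.51 ± 0.680 and 9.18 ± 0.929 FPKM (SD, n = 3 each), a difference of 1.01 in log2(FPKM + 0.1) (standard error 0.11). In bulk libraries a level shared by all cells and one set by the number of cells that express the gene cannot be told apart. IL6, the founding cytokine of the family and a fever and acute-phase inducer, had 13.8, 13.3 and 15.1 FPKM in vector libraries and 14.1, 16.5 and 15.3 FPKM in shYB1 libraries. The groups overlapped, with a log2 difference of 0.11 (standard error 0.066). In GENCODE 20.7% of the exonic bases of IL6 also belong to an antisense transcript, and no source states whether strand was used in counting, so its value is uncertain to that extent. LIF, which sustains stem cell renewal and implantation, had 19.6, 20.9 and 19.0 FPKM in vector libraries and 21.4, 21.6 and 21.1 FPKM in shYB1 libraries, a log2 difference of 0.11 (standard error 0.044). Its groups did not overlap, but the gap between the nearest libraries was smaller than the range of the vector libraries. The antisense transcripts AC004264.1 and LIF-AS1 cover 4.41% and 2.32% of the exonic bases of LIF, so some of its reads are uncertain as well.

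Set against each other within a library, IL11 made up 0.322 ± 0.0611 of the IL6 level in vector cells and 0.600 ± 0.0167 in shYB1 cells (SD, n = 3 each). The IL11 locus is chr19:55364389-55370463 on the minus strand of GRCh38, that of IL6 chr7:22725884-22732002 on the plus strand, and that of LIF chr22:30240447-30246851 on the minus strand. Over the 6 libraries the 3 genes whose log2 levels followed IL11 most closely were CCDC47, STRAP and TPM1, with Pearson correlations of 0.998, 0.996 and 0.996, the highest among 10439 genes, a description over points that share the split into groups. CCDC47, for example, lay between 20.0 and 21.3 FPKM in vector and between 23.2 and 24.1 FPKM in shYB1 libraries, a much smaller difference than that of IL11.

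Among the receptor chains, the shared chain IL6ST was higher in shYB1 cells and the IL-6 alpha chain IL6R was lower. Whether either had an adjusted p under 0.05 depended on the processing and on single libraries, as given below. IL6ST had 16.9, 17.3 and 16.1 FPKM in vector and 20.8, 20.2 and 18.0 FPKM in shYB1 libraries. All shYB1 values exceeded all vector values, the lowest of them by less than the range of the shYB1 group, and the log2 difference was 0.23 (standard error 0.057). IL6R had 1.75, 1.76 and 1.83 FPKM in vector and 1.35, 1.55 and 1.20 FPKM in shYB1 libraries, a log2 difference of −0.37 (standard error 0.10). All shYB1 values lay below the vector values, which were close together. The ratio of IL6ST to IL6R was 9.43 ± 0.533 in vector and 14.5 ± 1.25 in shYB1 libraries (SD, n = 3 each). It follows from the differences of these genes and adds nothing to them.

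IL11RA, the alpha chain for IL-11, was the least abundant member, at 0.859, 1.28 and 1.39 FPKM in vector and 0.677, 1.07 and 0.983 FPKM in shYB1 libraries. Its groups overlapped, the log2 difference of −0.34 had a standard error of 0.20, its shYB1 mean lay below 1 FPKM, and 14.3% of the 50-base words of its transcripts also occur in transcripts of GALT and AL162231.3, so its value is uncertain. The IL11 to IL11RA ratio was 3.92 ± 0.670 in vector and 10.3 ± 1.54 in shYB1 libraries (SD, n = 3 each). LIFR, the LIF receptor, had 4.22, 4.67 and 4.41 FPKM in vector and 4.98, 4.85 and 4.60 FPKM in shYB1 libraries, with overlapping groups and a log2 difference of 0.12 (standard error 0.064). OSMR, the oncostatin M receptor chain and the most abundant receptor here, had 55.7, 56.5 and 57.6 FPKM in vector and 55.8, 53.6 and 52.7 FPKM in shYB1 libraries. Its groups overlapped in 1 library and the log2 difference was −0.068 (standard error 0.035). Antisense transcripts cover 8.58% of the exonic bases of IL6ST and 5.30% of those of LIFR. RICTOR, on the opposite strand, covers 3.19% of those of OSMR. Of the 50-base words of IL6ST, 2.81% recur elsewhere, in its pseudogene IL6STP1 among others. Some reads of IL6ST, LIFR and OSMR are therefore uncertain. The receptor genes lie at chr5:55935095-55994993 (IL6ST, minus strand), chr1:154405193-154469450 (IL6R, plus), chr9:34650702-34661892 (IL11RA, plus), chr5:38474963-38608354 (LIFR, minus) and chr5:38845858-38945596 (OSMR, plus).

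Downstream of the receptors, both STAT3 and SOCS3 were lower in shYB1 cells. STAT3 had 21.6, 24.3 and 22.6 FPKM in vector and 19.3, 19.0 and 19.2 FPKM in shYB1 libraries. The shYB1 libraries were close together and all below the vector libraries, with a log2 difference of −0.25 (standard error 0.047). SOCS3 had 65.9, 66.7 and 67.0 FPKM in vector and 42.9, 43.6 and 46.1 FPKM in shYB1 libraries. The means were 66.5 ± 0.577 and 44.2 ± 1.68 FPKM (SD, n = 3 each), a ratio of 0.664 and a log2 difference of −0.59 (standard error 0.036). The gap between groups was several times the range within either group, and the ratio of SOCS3 to STAT3 was 2.92 ± 0.156 in vector and 2.31 ± 0.0907 in shYB1 cells (SD, n = 3 each). STAT3 lies at chr17:42313324-42388568 and SOCS3 at chr17:78356778-78360077, both on the minus strand.

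**Figure D2:**
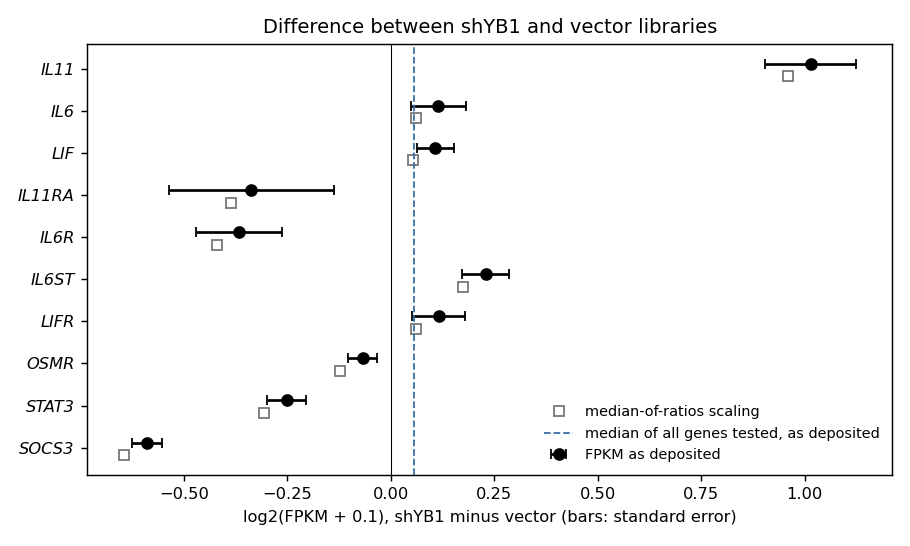
Log2(FPKM + 0.1) in shYB1 minus vector libraries (n = 3 each), with circles and standard error bars for FPKM as deposited, open squares after median-of-ratios scaling and a dashed line at the median of all genes tested (0.055). IL11 stands alone at 1.01, SOCS3 is the lowest at −0.59, and IL6, LIF and LIFR sit near the dashed line, where squares and circles keep the same sign.

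In the fit of all 10439 genes that averaged 1 FPKM or more, 5 of the 10 members (IL11 and IL6ST higher; SOCS3, STAT3 and IL6R lower) had an adjusted p under 0.05, as did 25.7% of all genes (18.7% higher and 6.93% lower), and 6 of the 10, the same 5 and LIF, had groups that did not overlap, as did 42.6% of all genes (30.1% with shYB1 above and 12.5% with shYB1 below). Since the choice of the members rests on this contrast, nothing is read from those counts. The calls of single members below describe how the fit depends on its settings and are no test of the members. Under FPKM as deposited, 73.0% of all calls were toward higher expression and the median log2 difference of all genes was 0.055. After median-of-ratios scaling, which called 23.4% of all genes (11.4% higher and 12% lower), 48.8% of calls were toward higher expression, and IL6ST was then not called (log2 difference 0.17), whereas IL11 (0.96), SOCS3 (−0.64), STAT3 (−0.31) and IL6R (−0.42) were and OSMR (−0.12) was called as well. IL6R was also not called without each of vector replicates 1, 2 and 3 and shYB1 replicates 1 and 3 in turn, with log2 differences of −0.38, −0.37, −0.35, −0.36 and −0.28. Without shYB1 replicate 1 or 2, IL6ST was not called either, at 0.19 and 0.21. It was also not called with quantile normalization, at 0.16, and IL6R was not called without the filter on low values.

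Counting both directions together, the other genes of the receptor machinery were called about as often as genes in general for FPKM as deposited. Their calls were mostly lower, whereas most calls over all genes were higher. Of 42 other genes of the pathway (ligands, receptors, kinases, STATs, adaptors and inhibitors), 29 were tested, of which 1 rose, 5 fell and 23 did not pass, so that 20.7% were called against 25.7% of all genes (18.7% higher and 6.93% lower). The list's median log2 difference was −0.016, against 0.055 for all genes. After median-of-ratios scaling 1 was higher and 8 were lower, so that 31.0% were called against 23.4% of all genes (11.4% higher and 12% lower), and the list then lay above the background instead of below it. None of the JAK kinases that sit on gp130 passed. JAK1, the main one, had means of 85.3 ± 1.22 FPKM in vector and 87.4 ± 2.04 FPKM in shYB1 cells (limma adjusted p = 0.455), JAK2 had 1.64 ± 0.195 and 1.48 ± 0.0526 FPKM (adjusted p = 0.385) and TYK2 had 13.1 ± 0.714 and 13.0 ± 0.417 FPKM (adjusted p = 0.893). JAK3, a leukocyte kinase, was near 0.

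The single gene of that list that rose was EBI3, the subunit shared by IL-27 and IL-35, which had 0.990, 1.17 and 0.853 FPKM in vector and 1.97, 1.68 and 2.03 FPKM in shYB1 libraries (log2 fold change 0.86, standard error 0.12, adjusted p = 0.00100 by limma). Its level was low, and its partner in IL-27, the product of IL27, was at 0 in every library. The largest fall was in SOCS1, the closest functional relative of SOCS3, with 4.91, 4.85 and 6.09 FPKM in vector and 3.13, 2.77 and 4.21 FPKM in shYB1 libraries (log2 fold change −0.65, standard error 0.15, adjusted p = 0.0131 by limma). Without shYB1 replicate 1 the SOCS1 fold change was −0.61 and the adjusted p 0.0539. STAT2, a transcription factor of the interferon response, fell from 10.4 ± 0.157 to 8.93 ± 0.475 FPKM (SD, n = 3 each; log2 fold change −0.22, limma adjusted p = 0.0124), while STAT5B and STAT6 did not pass (log2 differences of 0.018 and −0.026). PTPN6, which encodes the phosphatase SHP-1, fell by 0.37 on the log2 scale (adjusted p = 0.0109). PTPN11, which encodes SHP2 and competes with SOCS3 for the same site on gp130, fell by 0.14 (adjusted p = 0.0365), but that call was lost without each of 5 libraries (vector replicates 1, 2 and 3, shYB1 replicates 2 and 3), where the log2 difference ranged from −0.16 to −0.12 and the adjusted p from 0.0512 to 0.114, and it was also lost without the filter and with an untrended variance prior. Among the other inhibitors, SOCS4 to SOCS7 and PIAS1 to PIAS4 all failed the test.

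A broader list was also called about as often as genes in general, counting both directions together. Its calls split evenly between directions for FPKM as deposited, whereas most calls over all genes were higher. The deposited annotation places 152 genes other than the members in the KEGG JAK-STAT pathway. Of these, 31 are also in the list above and 5 in the list of reported STAT3 targets below. Of the 63 tested, 9 rose and 9 fell, with a median log2 difference of 0.018. Thus 28.6% were called, against 25.7% of all genes (18.7% higher and 6.93% lower). Among these calls, CREBBP, EGFR and IRF9 were lost in 6, 5 and 6 of 15 alternatives. Besides SOCS1 and PTPN6, the largest changes were rises in the growth factor gene PDGFB (0.45, adjusted p = 0.000869), the survival gene BCL2 (0.44, adjusted p = 0.0137) and HRAS (0.38, adjusted p = 0.00353), and a fall in IL10RB, a receptor chain of the IL-10 family (−0.31, adjusted p = 0.00287), all by limma. After median-of-ratios scaling the split was 7 higher and 13 lower (31.7% called, against 23.4% of all genes, 11.4% higher and 12% lower).

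Genes widely reported as STAT3 targets, a list drawn up with earlier results of these data known and so no independent evidence of its direction, were more often lower than higher. All 20 were tested, and 14 fell, 3 rose and 3 did not pass, so that 85.0% were called, against 25.7% of all genes and 45.8% of the 891 tested genes that averaged 50 FPKM or more, given beside it since this list is of abundant genes (median level 135 FPKM). Falls made up 6.93% of all genes tested and 18.9% of those abundant genes, and rises 26.9% of the latter. The list's median log2 difference was −0.20, against 0.055 over all genes. The largest fall was in ICAM1, an adhesion molecule for leukocytes, with 74.1, 75.7 and 76.9 FPKM in vector and 43.5, 45.1 and 45.3 FPKM in shYB1 libraries (log2 fold change −0.76, standard error 0.033, limma adjusted p = 4.74e-07). MUC1, an epithelial mucin, fell by 0.64, the acute-phase transcription factor CEBPD by 0.57, the NF-kB cofactor BCL3 by 0.55, the AP-1 subunit JUNB by 0.47 and HIF1A, the oxygen-regulated factor, by 0.47 on the log2 scale, with adjusted p-values from 9.07e-06 to 0.000237 by limma. In CEBPD that was a change from 770 ± 32.5 to 519 ± 38.9 FPKM, and in JUNB from 666 ± 17.3 to 480 ± 11.9 FPKM (SD, n = 3 each).

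Not every reported target fell. CCND1 (cyclin D1) and the survival genes BCL2L1 and BIRC5 rose, by log2 fold changes of 0.18, 0.21 and 0.17 (limma adjusted p = 0.00427, 0.00217 and 0.00787), while the third survival gene, MCL1, fell by 0.25 (adjusted p = 0.000639). MYC had a log2 difference of 0.087 (adjusted p = 0.0841) and PIM1, a STAT3-induced kinase, of 0.063 (adjusted p = 0.360), and its relative PIM3, at −0.096, did not pass either. The falls of EGR1, CEBPB and VEGFA (log2 fold changes of −0.12, −0.23 and −0.10) were each lost in 6 of 15 alternatives. Their log2 differences over these alternatives ranged from −0.17 to −0.064 for EGR1, from −0.31 to −0.17 for CEBPB and from −0.16 to −0.048 for VEGFA, with adjusted p-values of up to 0.154, 0.116 and 0.263. All were lost with an untrended variance prior, EGR1 and VEGFA also with quantile normalization and CEBPB without the filter, and the others were lost on leaving out 1 library. For EGR1 and CEBPB these were vector replicates 1 and 2 and vector replicates 1 and 3, respectively, and for both also shYB1 replicates 1 and 2. For VEGFA they were vector replicate 2 and each of the shYB1 libraries. Many genes of this list, ICAM1, BCL3 and IER3 among them, are also known targets of NF-kB, so that the list does not single out STAT3.

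**Figure D3:**
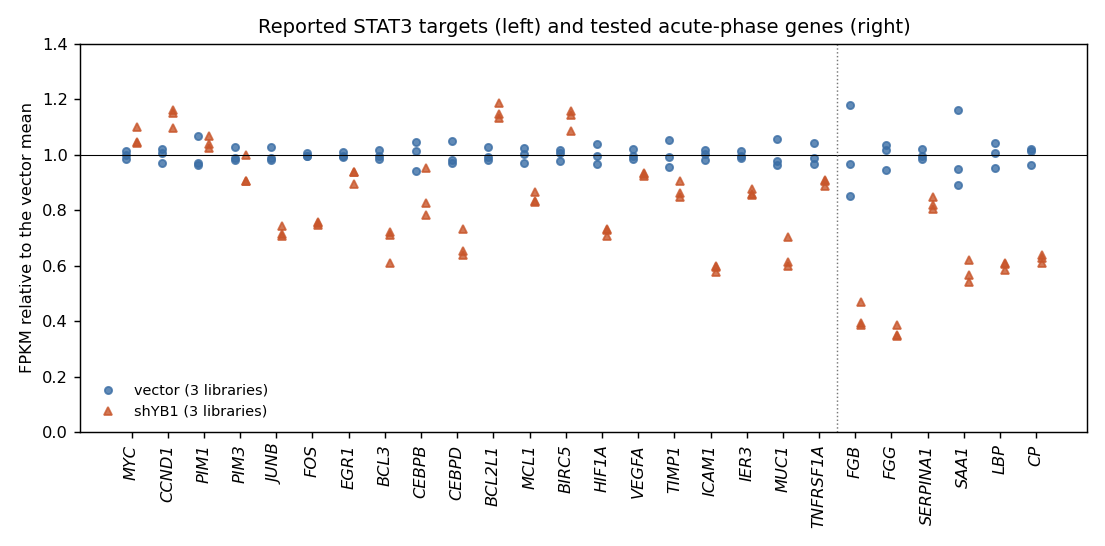
FPKM of each library divided by the vector mean of that gene, for the 20 reported STAT3 targets (left of the dotted line) and the 6 acute-phase genes tested (right), with circles for vector and triangles for shYB1 libraries. Most triangles lie below 1. Those of CCND1, BCL2L1 and BIRC5 lie above it, as do those of MYC and PIM1, which were not called. The fibrinogen genes FGB, which passed the filter through its vector level alone, and FGG lie lowest.

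Acute-phase plasma protein genes, the classical output of IL-6 in liver, were lower in shYB1 cells wherever they were tested. Of 17 such genes 5 were at 0 in all libraries (A2M, HP, ORM1, HAMP and HPX), and 6 were tested. The 5 that averaged 1 FPKM or more in both groups, FGG, SAA1, LBP, CP and SERPINA1, all fell, as did 6.93% of all genes tested, with a median log2 difference of −0.73. FGB, a chain of fibrinogen, passed the filter through its vector level alone, with 1.53, 2.12 and 1.74 FPKM in vector and 0.842, 0.705 and 0.690 FPKM in shYB1 libraries. LBP, which carries bacterial lipopolysaccharide, had 18.9, 19.6 and 17.9 FPKM in vector and 11.4, 11.0 and 11.5 FPKM in shYB1 libraries (log2 fold change −0.73, standard error 0.047, limma adjusted p = 6.00e-06). CP, which encodes the copper carrier ceruloplasmin, had 24.8, 25.0 and 23.6 FPKM in vector and 14.9, 15.7 and 15.3 FPKM in shYB1 libraries (−0.67, standard error 0.042, adjusted p = 4.58e-06). SERPINA1 (alpha-1-antitrypsin), the most abundant of them, fell from 57.1 ± 1.15 to 47.1 ± 1.24 FPKM (SD, n = 3 each; −0.28, adjusted p = 0.000402). SAA1, a serum amyloid A gene, fell from 16.4 ± 2.33 to 9.43 ± 0.672 FPKM (−0.78, adjusted p = 0.000518), but it is nearly identical to SAA2, so reads could have been split between them. Under the filter, SAA2 went from a mean of 1.06 to one of 0.552 FPKM and FGA from 0.647 to 0.256 FPKM, and neither was tested. Also untested, SERPINA3 went the other way, from 0.032 to 0.055 FPKM, as did SAA4, from 0.00011 to 0.012 FPKM, both near 0. CRP and ORM2 were near 0 in vector libraries and at 0 in every shYB1 library. The list was drawn up with earlier results of these data known, the fall of FGG among them, so the direction of its genes is not independent evidence.

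**Figure D4:**
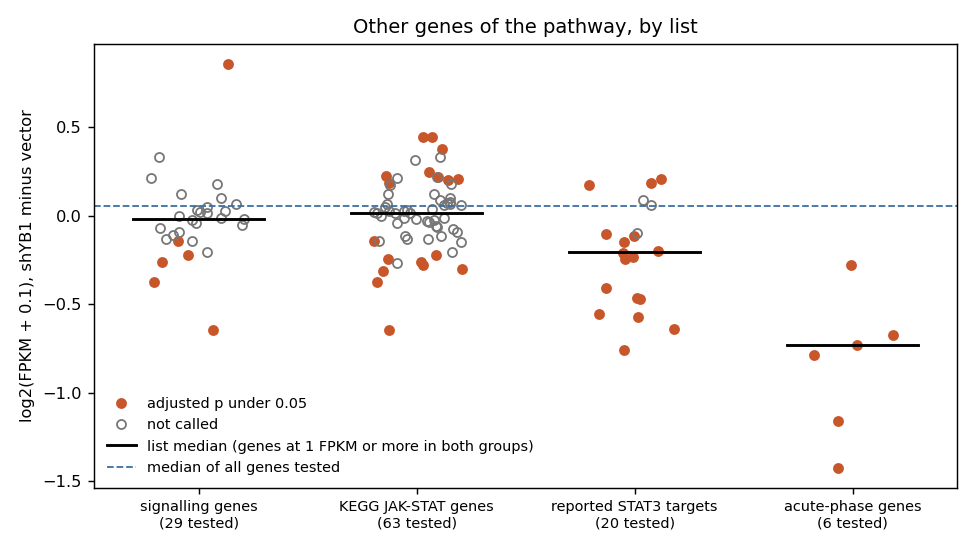
Log2(FPKM + 0.1) difference of each tested gene, shYB1 minus vector, in 4 lists of other pathway genes, filled where the limma adjusted p was under 0.05, with bars at the median of the list's genes that averaged 1 FPKM or more in both groups and the median of all genes (0.055) as a dashed line. The bars lie at −0.021 for signalling genes, 0.015 for KEGG JAK-STAT genes, −0.20 for reported STAT3 targets and −0.73 for 5 acute-phase genes, without FGB.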

How the data were processed

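RNA was measured in 3 vector and 3 shYB1 libraries of 786-O cells. The authors deposited FPKM per gene and library for 20030 genes; the submitters' processing notes name GRCh38, Trimmomatic, HISAT2, Cufflinks, HTSeq and DESeq without versions, roles or strand setting. Counts were not analysed here, so depth is unknown and no interval that needs it was computed. All 6 columns were used.

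Genes averaging under 1 FPKM were dropped, and log2(FPKM + 0.1) of the other 10439 was fitted with limma 3.58.1 in R 4.3.3 (trended, robust prior). Two-sided p-values were adjusted by the Benjamini-Hochberg method over all genes fitted. The pseudocount understates differences of low genes. Standard errors of members come from the same fit. The fit was tested on simulated data with known changes. Alternatives were pseudocounts of 1 and 0.01, no filter or one at 5 FPKM, 3 scalings, a plain variance prior, a replicate block and each library left out.

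Members and gene lists were chosen with earlier results of these data known. Text names all members, JAK1, JAK2 and TYK2, up to 6 called genes per list by size of change, and the 3 genes nearest to IL11; further list genes, and the share of calls among genes of at least 50 FPKM, were added after their values were seen. One called gene of the signalling list is not reported here. Positions and overlaps are from GENCODE 29 (GRCh38), promoters from RefSeq. Figures were drawn with matplotlib 3.10.9 in Python 3.11.15.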

Additional observations from a re-analysis of the deposited data

How the results depend on the processing

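The members were chosen with their differences known, so their values under the alternatives are a description. IL11 ranged from 0.89 to 1.12 on the log2 scale, SOCS3 from −0.64 to −0.57 and STAT3 from −0.31 to −0.21. The number of members called lay between 3 and 5 with 1 library left out, the 3 being without shYB1 replicate 1. In that setting 2006 of all 10439 genes tested were called, and nothing is read from the member counts. Leaving out 1 library gave 5 to 6 signalling genes, 14 to 17 reported STAT3 targets, 6 acute-phase genes (FGB, which passed through the vector group alone, among them), 14 to 17 KEGG JAK-STAT genes and 1854 to 2507 genes in all. Median-of-ratios scaling turned the split of all calls from 1956 higher and 723 lower to 1192 higher and 1253 lower, and quantile normalization to 1267 and 1184. The signalling genes called lower went from 5 to 8 with median-of-ratios scaling. With the replicate number as a block, 5 members, 6 signalling genes, 18 STAT3 targets, 6 acute-phase genes, 18 KEGG genes and 2834 genes in all were called. Whether equal numbers pair the libraries is not known. Deviations of same-numbered libraries correlated at −0.17 to −0.0082, which cannot settle it with 3 libraries per group. The block changed no call of a member. Depth is unknown, so what it limits for IL11RA and IL6R cannot be stated.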
